A study of Triticum aestivum with 8 samples.

Results

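A set of 36 probe sets read lower in droughted than in watered leaves of the bread wheat cultivar WL711, while their mean drought difference in the cultivar C306 stayed near 0. They were chosen by their measured values from 61179 probe sets of a wheat Affymetrix array: the lower of the 2 WL711 control values had to exceed the higher of the 2 WL711 drought values by at least 1 on the log2 scale, and the mean of C306 drought minus the mean of C306 control had to lie between -0.5 and 0.5. The drop in WL711 and the flat mean in C306 are therefore what selected these probe sets, and both are given below as a description. The members were also picked with earlier results of these data known.

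Leaf RNA came from 4 groups of 2 biological replicates each: WL711 control, WL711 drought, C306 control and C306 drought. Control plants were watered throughout. Drought plants received no water from day 27 of age, and all plants were labelled as 48 days old, so the water had been withheld for 21 days. All groups were of the same species, tissue and age, and the labels do not say how many plants were pooled for a replicate. Of these Indian cultivars, C306 is regarded as tolerant of drought and WL711 as sensitive to it.

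When soil dries, a wheat leaf closes its stomata through abscisic acid, slows growth and photosynthesis, and lowers many transcripts of growth and light use while raising those of protective proteins such as dehydrins. Cultivars can differ in how early and how far these programmes run. A transcript that is lower in only 1 cultivar may have begun at a different level there, so the level of the other cultivar belongs beside the drop.

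The platform annotation paired 1 of the 36 probe sets with a gene, LOC100037531, and gave none for the other 35, against 2.08% of all 61179 probe sets with a gene. The members are therefore named by probe set identifier. A probe set is a group of short probes read together as 1 transcript measurement. On this array, an ending in _x_at, _s_at or _a_at marks probes that can match several transcripts. Of the 36 members, 10 had such an ending, against 20.8% of all probe sets, and 13 had an identifier starting with TaAffx, against 48.5%. The 36 identifiers fell into 32 first parts such as Ta.10, which for Ta identifiers stand for 1 sequence cluster of the array's design. Of these first parts, 3 held more than 1 member, with 7 members in all, so the 36 readings are not 36 independent transcripts.

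The deposited values had been centred on each probe set's median over the 8 arrays. A value of 2 means 2 log2 units above that probe set's own median, and says nothing of how abundant the transcript was. The label of leaf tissue could not be checked against marker levels for the same reason. Whether a probe set was above background in C306 could not be read either.

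A few facts of the arrays touch every comparison below. WL711 control replicate 1 had a wider spread than the others, with an interquartile range of 0.482 against 0.221 to 0.302 on the other 7 arrays. The hybridisation controls averaged -0.76 on that array, -0.98 on the watered C306 replicate 2 and -0.92 on the droughted C306 replicate 1, against 0.020 to 0.13 on the other 5. The actin control probe sets, read as 3' minus 5' signal, stood at 0.42 and 0.27 in watered WL711 and at -0.35 and -0.022 in droughted WL711, so this sign of RNA quality moved with watering in WL711. In watered C306 the same difference was -0.11 and 0.26, and in droughted C306 -0.24 and -0.083. Their part in the results was not tested. The labels call the replicates biological, and 2 arrays a group limit the precision of every value.

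The deepest drop belonged to Ta.17978.1.S1_at. It read 5.17 and 5.39 in watered WL711, 0.62 and -0.17 in droughted WL711, 0.00 and -0.06 in watered C306, and 0.00 and -0.36 in droughted C306 (centred log2, replicates 1 and 2 here and below). The watered WL711 leaves stood apart, and the other 6 arrays lay within 1 log2 unit of each other. The WL711 difference was -5.06 (log2, drought minus control, SE 0.25, limma adjusted p = 0.000982). In whole leaf RNA, fewer cells of a type and less RNA per cell cannot be told apart.

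Ta.10581.1.A1_at had the next largest gap and the opposite layout. It read -0.46 and -0.89 in watered WL711, -4.00 and -4.39 in droughted WL711, 1.47 and 0.46 in watered C306, and 1.33 and 1.23 in droughted C306. Here the droughted WL711 leaves stood apart at the bottom, and all C306 arrays lay above both watered WL711 arrays. The WL711 difference was -3.52 (SE 0.31, limma adjusted p = 0.0271).

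**Figure D1:**
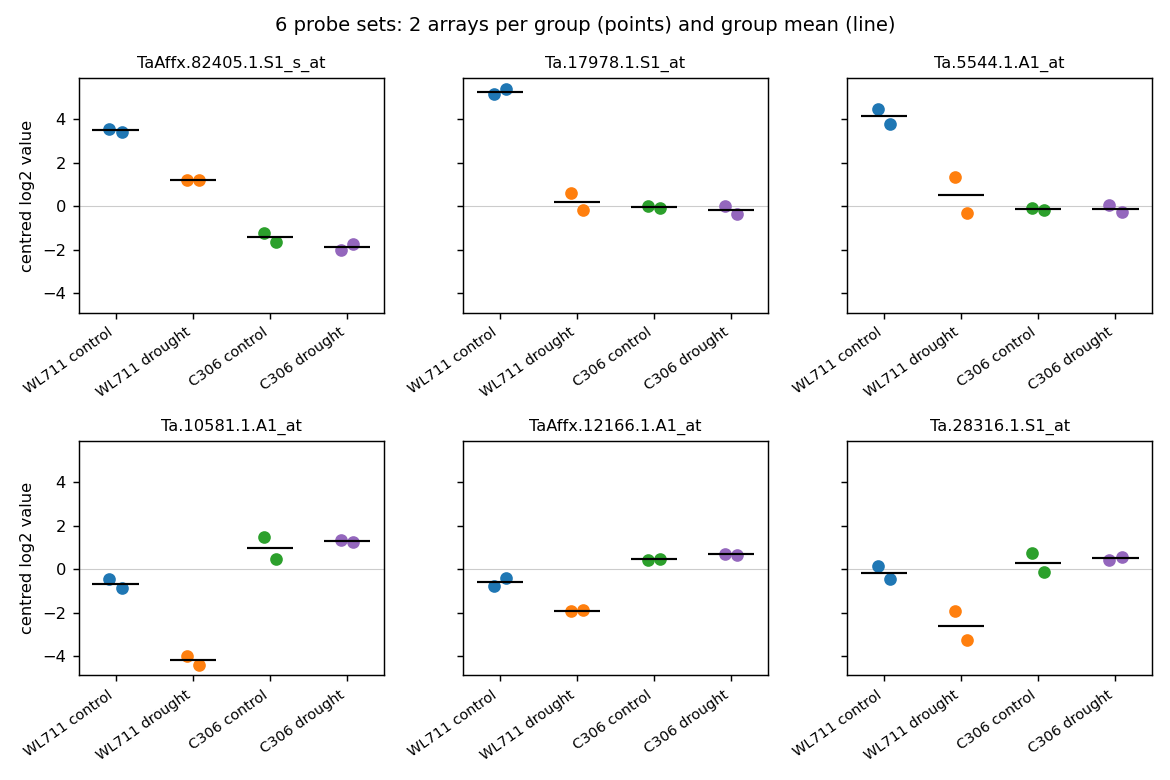
Centred log2 values (y axis) of the 3 probe sets lowest and the 3 highest in C306 relative to WL711, in the 4 groups (x axis). Each point is 1 array and each line the mean of 2 arrays. In the upper row WL711 control is the group that stands high, with means of 3.50, 5.28 and 4.15. In the lower row WL711 drought stands low, with means of -4.19, -1.90 and -2.59.

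Over the 36 members the gap between the lower control and the higher drought value ran from 1.003 to 4.55, with a median of 1.35. It was at least 2 for 8 members and at least 1.5 for 14. The difference of WL711 means ran from -5.06 to -1.16, with a median of -1.78, beside a median of -0.018 over all 61179 probe sets. It was -2 or lower for 13 members and -3 or lower for 4.

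Few of these drops passed a test across the array. In limma with Benjamini-Hochberg adjustment over 61179 probe sets, 5 of 36 members had an adjusted p under 0.05 in WL711, against 0.0360% of all probe sets in either direction and 0.0196% with a lower value. All 36 had an unadjusted p under 0.05, against 6.55% of all probe sets with a lower value. The rule used this contrast, so nothing is read from these shares. The 5 were Ta.17978.1.S1_at, Ta.10581.1.A1_at, TaAffx.82405.1.S1_s_at, TaAffx.111067.1.S1_s_at and Ta.30463.1.A1_at, and the other 31 had adjusted p from 0.0517 to 0.234. The count was 16 with the replicate number as a block, 0 of 36 with trend and robust eBayes (36 at an unadjusted p under 0.05) and 1 with array weights. It was 11 of 26 when probe sets with shared endings were removed. Over all probe sets 22 passed in the main setting, in either direction. In these 4 settings 81, 5, 1 and 33 did, so the count moved over the whole array. Fits with 1 WL711 array left out leave that group with 1 array and are given here as differences only. In them the WL711 difference ran from -5.45 to -4.66 for Ta.17978.1.S1_at and from -3.73 to -3.31 for Ta.10581.1.A1_at.

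The name of the set, lowered in WL711 only, holds by the rule for the means but seldom by a test of the difference itself. The drought effect in C306 minus that in WL711 ran from 1.12 to 4.91 over the 36. It passed for 2 of them, Ta.17978.1.S1_at at 4.91 (SE 0.36, limma adjusted p = 0.00575) and Ta.10581.1.A1_at at 3.84 (SE 0.44, adjusted p = 0.0414), against 0.0311% of all probe sets. At an unadjusted p under 0.05 it was all 36, against 4.02%. This difference is made of the contrasts that the rule used, and it is a description too. With trend and robust eBayes 0 of 36 passed (limma, 28 at an unadjusted p under 0.05), where 30 of all probe sets passed in either direction. With the replicate block and with array weights 2 passed, where 19 and 20 of all probe sets did. The main setting had 25. Fits with 1 array left out leave a group with 1 array and are given here as differences only. In them the difference ran from 4.52 to 5.31 for Ta.17978.1.S1_at and from 3.33 to 4.34 for Ta.10581.1.A1_at.

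**Figure D2:**
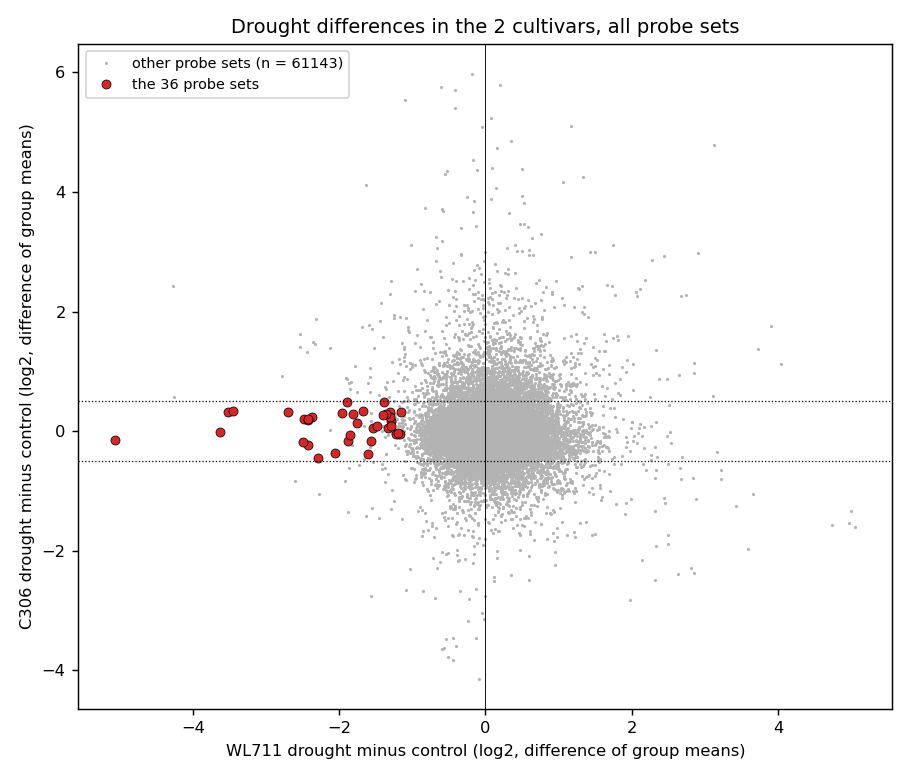
Drought minus control in WL711 (x axis, log2) against drought minus control in C306 (y axis, log2) for every probe set, as differences of group means. The 36 probe sets (red) lie between -5.06 and -1.16 on the x axis and within the dotted lines at -0.5 and 0.5 that the rule set. Grey points are the other 61143 probe sets, most of them near 0 in both cultivars.

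The flat mean in C306 is a weak condition by itself, since 92.7% of all probe sets met it. A gap of at least 1 in WL711 was met by 66 probe sets, or 0.108%. Of those 66, 36 lay within the C306 limits, 25 lay above 0.5 and 5 lay below -0.5. The same rule with cultivars exchanged found 51 probe sets lowered in C306, and with waterings exchanged it found 73 raised in WL711.

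Values at the limits of the rule differed little from each other. Just inside the gap were TaAffx.128418.115.S1_at at 1.003 and Ta.25518.1.S1_at at 1.02. Just outside were Ta.11225.1.A1_at at 0.979 and Ta.1156.2.S1_x_at at 0.975. At the C306 limit, Ta.521.1.S1_at at 0.49 and TaAffx.83362.1.S1_at at 0.48 were inside, and Ta.3154.1.S1_at at -0.52 and Ta.9590.1.S1_at at 0.56 were outside.

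The members split by where C306 stood. For 23 of the 36, the mean over the 4 C306 arrays lay nearer to droughted than to watered WL711, and for 13 it lay nearer to watered WL711. This split was made after values had been seen and has no test of its own. In 26 members all 4 C306 arrays were below both WL711 control arrays, against 26.7% of all probe sets. In 14 members all 4 C306 arrays were above both WL711 drought arrays, against 14.8%. Of the 36, 22 met only the first condition, 10 only the second and 4 both. The rule set the WL711 groups apart and kept the C306 difference small. C306 arrays can then fall clear of a WL711 group through the choice of members alone. The comparison with all probe sets is therefore not independent of the rule, and these counts are given as a description. Where C306 lay as low as droughted WL711, whether it had signal left to lose could not be read from centred values.

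**Figure D3:**
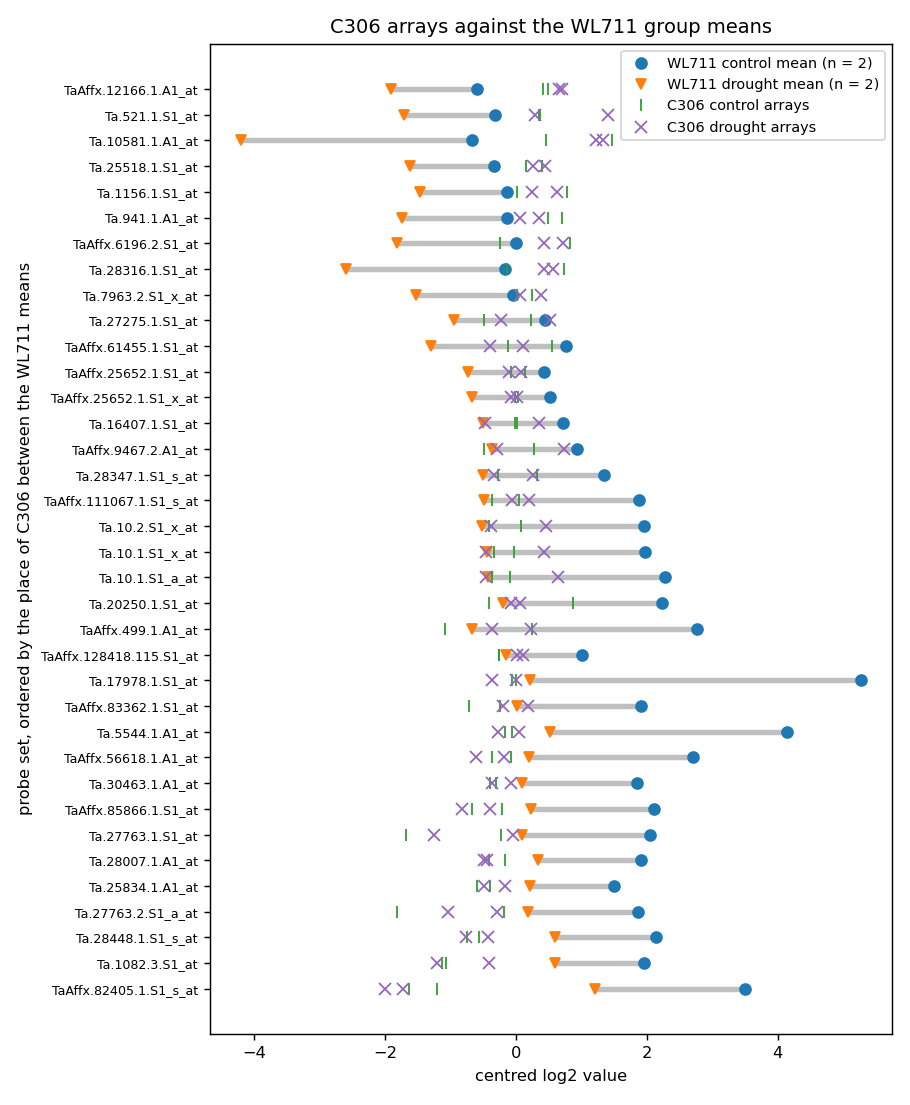
Centred log2 values (x axis) of the 36 probe sets (y axis), ordered by where the mean of C306 lies on the way from droughted to watered WL711. Circles and triangles are WL711 control and drought means of 2 arrays, joined by a bar, and the smaller marks are the single C306 arrays. The upper rows have C306 at or above watered WL711, and the lower rows have it at or below droughted WL711.

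By difference of means, the member next to Ta.17978.1.S1_at in WL711 was Ta.5544.1.A1_at. It read 4.50 and 3.79 in watered WL711, 1.35 and -0.30 in droughted WL711, -0.05 and -0.16 in watered C306, and 0.05 and -0.28 in droughted C306. The droughted WL711 arrays were 1.65 apart, and the lower of them was level with C306. The WL711 difference was -3.62 (SE 0.46, limma adjusted p = 0.0524).

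TaAffx.499.1.A1_at read 2.61 and 2.94 in watered WL711 and -0.23 and -1.12 in droughted WL711. Its C306 values were -1.08 and 0.25 on control and -0.37 and 0.23 on drought. The C306 values overlapped those of droughted WL711, and both watered WL711 arrays lay over 2 log2 units higher. The WL711 difference was -3.45 (SE 0.44, limma adjusted p = 0.0524).

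Ta.20250.1.S1_at read 2.06 and 2.41 in watered WL711, -0.10 and -0.28 in droughted WL711, -0.40 and 0.87 in watered C306, and -0.07 and 0.07 in droughted C306. C306 control replicate 2 was the highest of the 6 arrays outside watered WL711. TaAffx.111067.1.S1_s_at read 1.88 and 1.89 in watered WL711, -0.80 and -0.18 in droughted WL711, 0.05 and -0.37 in watered C306, and -0.05 and 0.21 in droughted C306. Its WL711 difference was -2.37 (SE 0.23, limma adjusted p = 0.0365), and its control arrays agreed within 0.01.

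TaAffx.56618.1.A1_at read 3.24 and 2.17 in watered WL711, 0.34 and 0.08 in droughted WL711, -0.36 and -0.08 in watered C306, and -0.19 and -0.60 in droughted C306. TaAffx.85866.1.S1_at read 2.38 and 1.86 in watered WL711, 0.21 and 0.27 in droughted WL711, -0.67 and -0.21 in watered C306, and -0.82 and -0.39 in droughted C306. In both, every C306 array was below both droughted WL711 arrays. Ta.30463.1.A1_at, singled out because it passed, read 1.99 and 1.72 in watered WL711, 0.07 and 0.13 in droughted WL711, -0.30 and -0.39 in watered C306, and -0.37 and -0.07 in droughted C306, a WL711 difference of -1.75 (SE 0.17, limma adjusted p = 0.0321).

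In 10 members all 4 C306 arrays lay below all 4 WL711 arrays, against 13.2% of all probe sets. The furthest was TaAffx.82405.1.S1_s_at, which read 3.55 and 3.44 in watered WL711, 1.21 and 1.23 in droughted WL711, -1.21 and -1.63 in watered C306, and -1.99 and -1.73 in droughted C306. The 3 levels did not overlap, and replicates differed by 0.02 in droughted WL711. Its WL711 difference was -2.28 (SE 0.18, limma adjusted p = 0.0227), and its difference in C306 was -0.44, near the limit of the rule. Ta.28448.1.S1_s_at had a similar layout, with 2.05 and 2.23 in watered WL711, 0.43 and 0.77 in droughted WL711, -0.56 and -0.74 in watered C306, and -0.77 and -0.43 in droughted C306.

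In 7 members all 4 C306 arrays lay above all 4 WL711 arrays, against 10.2% of all probe sets. After Ta.10581.1.A1_at, the next by cultivar difference was TaAffx.12166.1.A1_at, which read -0.78 and -0.41 in watered WL711, -1.92 and -1.89 in droughted WL711, 0.41 and 0.49 in watered C306, and 0.71 and 0.65 in droughted C306. Groups did not overlap, and the drought difference was 0.23 in C306 and -1.31 in WL711. Ta.521.1.S1_at read -0.34 and -0.29 in watered WL711, -1.43 and -1.97 in droughted WL711, 0.35 and 0.38 in watered C306, and 0.29 and 1.41 in droughted C306, where replicate 2 stood alone.

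Ta.941.1.A1_at read -0.06 and -0.20 in watered WL711, -1.25 and -2.22 in droughted WL711, 0.49 and 0.70 in watered C306, and 0.35 and 0.06 in droughted C306. Ta.25518.1.S1_at read -0.16 and -0.50 in watered WL711, -1.52 and -1.73 in droughted WL711, 0.40 and 0.16 in watered C306, and 0.45 and 0.27 in droughted C306. Both had every C306 array above every WL711 array. For Ta.28316.1.S1_at, at 0.14 and -0.46 in watered WL711, -1.94 and -3.24 in droughted WL711, 0.73 and -0.14 in watered C306, and 0.44 and 0.57 in droughted C306, the watered groups overlapped and droughted WL711 alone stood apart. TaAffx.6196.2.S1_at was alike, with -1.38 and -2.24 in droughted WL711 against -0.24 to 0.83 over the 4 C306 arrays and group means of 0.29 and 0.57.

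The 4 members in which C306 lay between watered and droughted WL711 on all arrays were TaAffx.25652.1.S1_at, TaAffx.25652.1.S1_x_at, TaAffx.61455.1.S1_at and Ta.16407.1.S1_at, named here after their values were seen. TaAffx.25652.1.S1_at read 0.48 and 0.37 in watered WL711, -0.75 and -0.71 in droughted WL711, -0.08 and 0.15 in watered C306, and -0.10 and 0.08 in droughted C306. It kept to 0.24 over the 4 C306 arrays, and the probe set TaAffx.25652.1.S1_x_at to 0.10, the smallest C306 range of the 36.

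**Figure D4:**
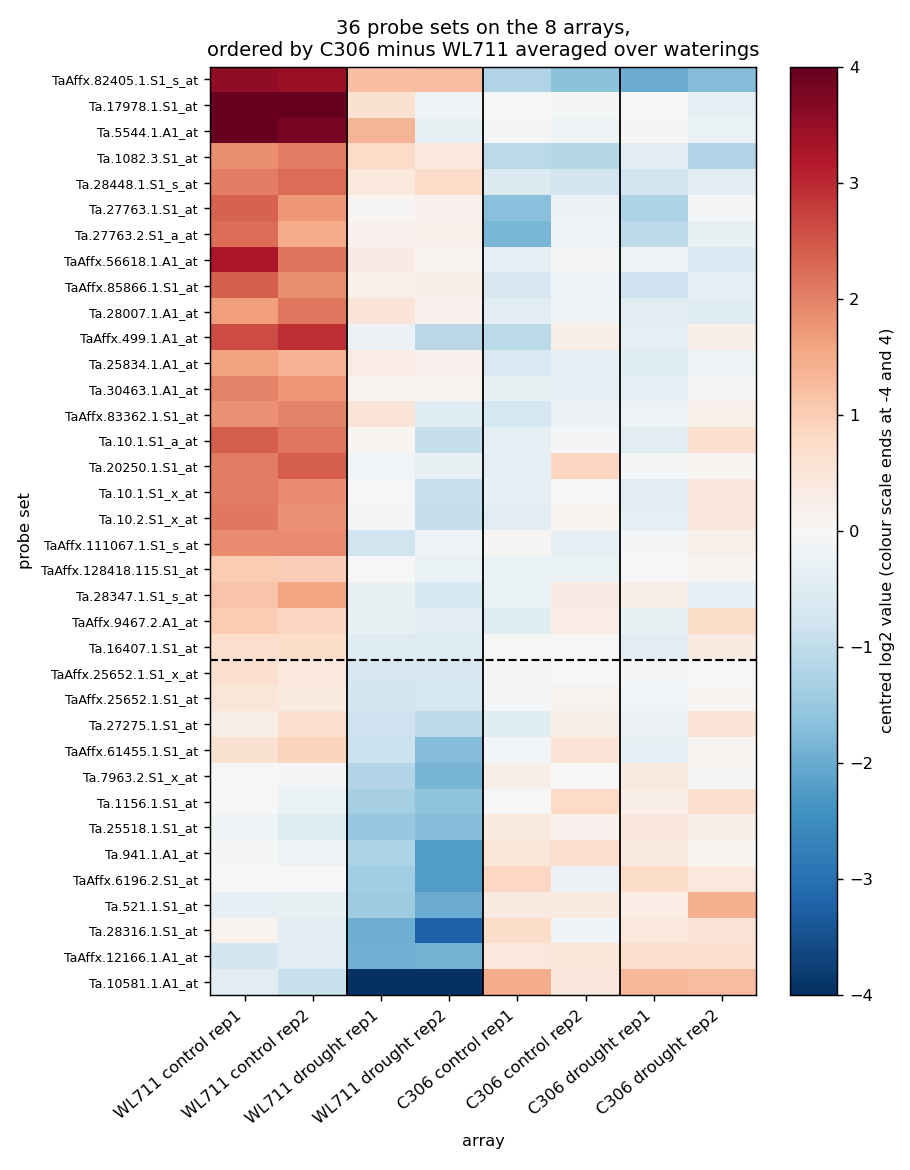
Centred log2 values of the 36 probe sets (rows) on the 8 arrays (columns), from blue for low to red for high. Rows are ordered by C306 minus WL711 averaged over waterings, and the dashed line parts the 23 probe sets below 0 from the 13 above 0. Above the line the WL711 control columns are the red ones, and below it the WL711 drought columns are the blue ones.

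One comparison of the design is orthogonal to both drought contrasts: the difference between cultivars averaged over waterings. It compares the mean of the 2 C306 groups with the mean of the 2 WL711 groups. A member can therefore pass where the cultivars differ under 1 watering only. Ta.17978.1.S1_at had means of 5.28 and -0.03 in watered WL711 and C306, and of 0.22 and -0.18 in droughted WL711 and C306. The comparison uses the same 8 arrays. A member whose C306 level equals either WL711 level must differ by at least 0.5, so the rule bears on the size of the difference. Its direction was not a condition of the rule. Yet replicates lay further apart in WL711 control than in WL711 drought (median 0.24 against 0.16 over all probe sets). Over the members the medians were 0.25 and 0.34, the other way round. Picking large drops could still favour high control readings, which was not tested. The direction is therefore not taken as free of the rule. In limma over 61179 probe sets, 28 of 36 members passed, 19 lower and 9 higher in C306. Of all probe sets 19.0% passed, 8.90% lower and 10.1% higher. Because the rule bears on size and may bear on direction, the larger share, the split and the median of the members are not read as results. The cultivar differences and calls of single members below are a description for the same reason. Refits on the same members do not remove this dependence. The median over the 36 was -0.76, beside -0.076 over all probe sets. With the members chosen again by the rule, it was -0.11 without WL711 drought replicate 1, -0.19 without WL711 drought replicate 2, -0.41 without C306 drought replicate 2 and -0.49 without WL711 control replicate 2. It was -0.37 with shared endings removed. With trend and robust eBayes, 18 of 36 passed, 11 lower and 7 higher.

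TaAffx.82405.1.S1_s_at had the largest cultivar difference of the 36, at -4.00 (log2, C306 minus WL711, SE 0.13, limma adjusted p = 3.44e-07), with 4 of 4 C306 arrays below every WL711 array. Ta.17978.1.S1_at stood at -2.86 (SE 0.18, adjusted p = 1.9e-05) and Ta.5544.1.A1_at at -2.44 (SE 0.32, adjusted p = 0.00151), and with trend and robust eBayes in limma their adjusted p became 0.136 and 0.121. Ta.28448.1.S1_s_at stood at -2.00 (SE 0.13, adjusted p = 2.42e-05) and Ta.27763.1.S1_at at -1.88 (SE 0.35, adjusted p = 0.00825). TaAffx.56618.1.A1_at at -1.76 and TaAffx.85866.1.S1_at at -1.70 passed too, under the main setting and all 14 alternatives.

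Higher in C306 were Ta.10581.1.A1_at at 3.56 (SE 0.22, limma adjusted p = 1.72e-05), TaAffx.12166.1.A1_at at 1.82 (SE 0.11, adjusted p = 1.89e-05) and Ta.28316.1.S1_at at 1.78 (SE 0.30, adjusted p = 0.00499, and 0.0565 with trend and robust eBayes). Ta.521.1.S1_at followed at 1.62, Ta.941.1.A1_at at 1.34, TaAffx.6196.2.S1_at at 1.34 and Ta.25518.1.S1_at at 1.30. These 4 passed under all 14 alternatives, as did Ta.10581.1.A1_at and TaAffx.12166.1.A1_at.

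The call of 4 further members was close to the threshold. TaAffx.499.1.A1_at at -1.29 (limma adjusted p = 0.0224) missed the threshold in 5 of 14 alternatives, at -1.38 and -1.21 without WL711 control replicates 1 and 2, -1.07 without WL711 drought replicate 1 and -1.14 without C306 drought replicate 1. Ta.20250.1.S1_at at -0.91 (limma adjusted p = 0.0353) missed it in 7 of 14, at -0.99 to -0.82 when any 1 WL711 array or either C306 drought array was left out. The C306 control arrays moved Ta.20250.1.S1_at most, to -0.59 without replicate 1 and -1.22 without replicate 2, and it passed in both cases (limma adjusted p = 0.0298 and 0.00133). TaAffx.111067.1.S1_s_at at -0.74 missed it in 3 of 13, at -0.63 when C306 control replicate 2 was left out (limma adjusted p = 0.0540) and at -0.68 when C306 drought replicate 1 was (0.0715). TaAffx.128418.115.S1_at at -0.52 missed it in 2 of 14, at -0.50 without C306 drought replicate 1 (limma adjusted p = 0.0550). With trend and robust eBayes each of these 4 missed the threshold as well. The 8 members that did not pass ran from -0.79 to 0.31, with adjusted p from 0.0557 to 0.662.

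The only member with a gene was Ta.1082.3.S1_at, of LOC100037531, a protein-coding gene without a further name in the tables used here. It read 1.85 and 2.06 in watered WL711, 0.78 and 0.41 in droughted WL711, -1.07 and -1.13 in watered C306, and -0.41 and -1.21 in droughted C306. The 3 levels of watered WL711, droughted WL711 and C306 did not overlap. The WL711 difference was -1.36 (SE 0.25, limma adjusted p = 0.132) and did not pass. The cultivar difference was -2.23 (SE 0.18, adjusted p = 8.83e-05), past the threshold under all 14 alternatives.

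The other probe set of LOC100037531, Ta.1082.3.S1_x_at, missed the gap at 0.960 and read 1.09 and 1.17 in watered WL711, 0.13 and -0.13 in droughted WL711, -1.32 and -0.82 in watered C306, and 0.21 and -0.64 in droughted C306. In C306 it read 0.86 higher under drought, so it also lay outside the limits of the rule. The other 3 probe sets with Ta.1082 in their identifier belong to LOC100037645 and LOC543268. Ta.1082.1.S1_a_at and Ta.1082.1.S1_x_at of LOC100037645 stood at -0.94 and -0.82 in WL711 and at 0.69 and 0.86 in C306, and Ta.1082.2.S1_x_at of LOC543268 at -0.77 and 0.50 (log2, drought minus control). In 4 of these 5 probe sets, all but the member, the ending marks probes that can match several transcripts. Those 4 readings may therefore not be of separate genes. None of the 5 passed in either cultivar.

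Members that share a first part of the identifier moved alike on the arrays. Ta.10.1.S1_a_at read 2.42 and 2.13 in watered WL711, 0.08 and -0.94 in droughted WL711, -0.37 and -0.08 in watered C306, and -0.45 and 0.65 in droughted C306. Ta.10.1.S1_x_at and Ta.10.2.S1_x_at gave the same order of arrays within each group. Their WL711 differences were -2.70, -2.42 and -2.47, with adjusted p from 0.0682 to 0.0767 (limma). Their cultivar differences were -0.98, -0.86 and -0.79. The first lost its call in 9 of 13 alternatives and the second in 10 of 13, most of them leaving out 1 array, and the third did not pass.

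Ta.27763.1.S1_at and Ta.27763.2.S1_a_at shared a split between the C306 replicates. The first read 2.37 and 1.74 in watered WL711, 0.04 and 0.16 in droughted WL711, -1.68 and -0.22 in watered C306, and -1.25 and -0.04 in droughted C306. The second read -1.81 and -0.17 in watered C306 and -1.03 and -0.28 in droughted C306. In C306 replicate 1 was the lower array under both waterings, and the replicates of a group were up to 1.64 apart.

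**Figure D5:**
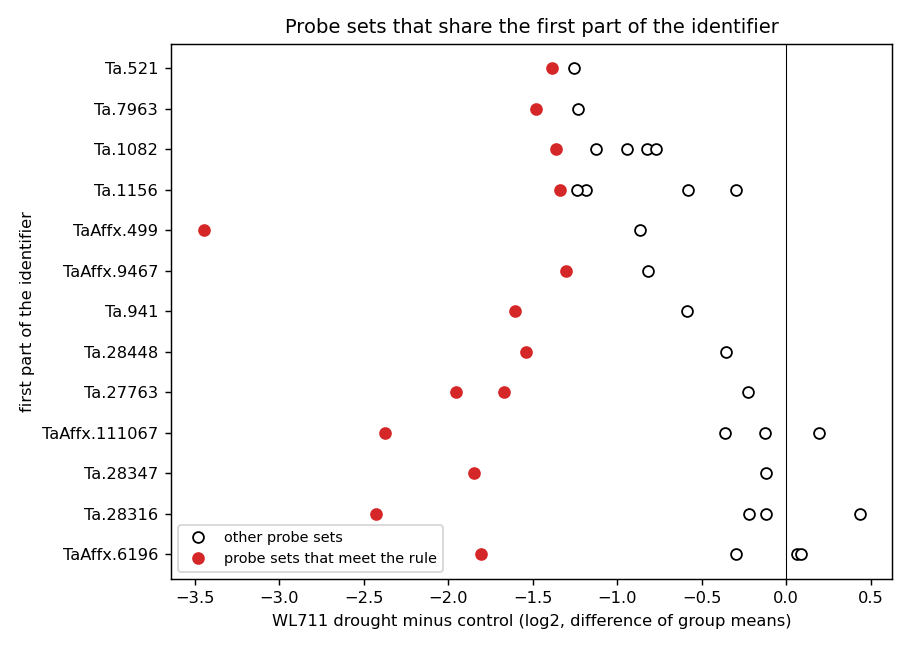
Drought minus control in WL711 (x axis, log2, difference of group means) for probe sets that share the first part of their identifier (y axis) with a member. Filled points are members and open points the other probe sets. For Ta.1082, Ta.521 and Ta.7963 all other probe sets read -0.77 or lower, and for Ta.28316, TaAffx.111067 and TaAffx.6196 they lay between -0.36 and 0.43. TaAffx.128418, with 113 probe sets, is not drawn.

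Probe sets that share a first part with a member but missed the rule were read on the same arrays. There were 137 of them on 14 first parts. Over all 137, 95 had a WL711 difference below 0, with a median of -0.15, and 62, or 45.3%, had both drought arrays below both control arrays. TaAffx.128418 alone held 112 of them, of which 74 were below 0 and 44 had both drought arrays below both control arrays. Some of these 112 are paired with different genes, among them petC, LOC606363 and LOC543498. A shared TaAffx first part therefore need not mean 1 gene. Of the other 25, 21 had a WL711 difference below 0, with a median of -0.36, beside 52.6% of all probe sets below 0. In 18 of the 25 both drought arrays were below both control arrays in WL711, against 22.4% of all probe sets. Since members were removed from these, what remains is cut at the rule's own limits. Some also carry a member's own number, as Ta.521.1.S1_s_at beside Ta.521.1.S1_at, and can share the signal and array noise by which that member was chosen. These shares are therefore not independent of the choice and are not read as results.

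For Ta.1156.1.S1_at, at -0.01 and -0.25 in watered WL711 and -1.32 and -1.62 in droughted WL711, the 4 other probe sets stood at -1.24, -1.18, -0.58 and -0.30. Ta.521.1.S1_s_at stood at -1.25, Ta.7963.1.S1_x_at at -1.23 and Ta.941.2.S1_at at -0.59, each beside 1 member. Not every first part behaved so. Ta.27763.3.S1_at stood at -0.22 beside members at -1.96 and -1.67, Ta.28347.2.S1_at at -0.12 beside -1.84, and Ta.28448.1.S1_at at -0.35 beside -1.54. Beside Ta.28316.1.S1_at at -2.43, the others stood at -0.22, -0.12 and 0.43. Beside TaAffx.111067.1.S1_s_at at -2.37 they stood at -0.36, -0.13 and 0.20, and beside TaAffx.6196.2.S1_at at -1.81 they stood at -0.29, 0.066 and 0.088. TaAffx.499.2.S1_at, of LOC778416, stood at -0.87 beside the -3.45 of TaAffx.499.1.A1_at.

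A flat C306 mean did not always mean that C306 arrays agreed. The range over the 4 C306 arrays was 0.78 at the median of the 36, from 0.10 to 1.64, against a median of 0.34 over all probe sets. It was at least 1 in 10 members, or 27.8%, against 6.15% of all probe sets, and under 0.5 in 12. Both C306 drought arrays were below both C306 control arrays in 3 members, against 21.5% of all probe sets, and above them in 3, against 17.2%. The difference of C306 means was above 0 in 23 members and below 0 in 13. Its median was 0.15 over the members and -0.019 over all probe sets. No member passed in limma for this difference (1 at an unadjusted p under 0.05), against 0.0490% of all probe sets. The rule held this difference between -0.5 and 0.5. The counts of arrays apart, of signs and of calls in C306 are therefore a description and are not read as results.

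Single arrays leaned the same way in many members. In both C306 groups replicate 2 was above replicate 1 in 18 of 36 members, against 22.1% of all probe sets, and by at least 0.5 in 6 members, against 0.711%. In droughted WL711, replicate 1 was above replicate 2 in 26 of 36, by a median of 0.28, against 47.9% of all probe sets. In watered WL711, replicate 1 was above in 22, by a median of 0.11, against 47.7% of all probe sets. The median distance between the replicates of a group was 0.25 for WL711 control, 0.34 for WL711 drought, 0.30 for C306 control and 0.35 for C306 drought over the members, and 0.24, 0.16, 0.18 and 0.14 over all probe sets. The part of these arrays in the results was not tested.

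Few probe sets of the array could show a named pathway. Only 200 probe sets of 102 genes carry a name beyond a locus number, and 0 of them are members. The members are 0.0588% of all probe sets, so a count of 0 among 200 is not a result about them. Patterns for 13 gene groups, among them photosynthesis, dehydrins, cell wall, hormones and transport, matched 1 to 11 genes each. The largest WL711 gap of a named probe set was 0.74, on 1 of the probe sets of LOC100049018, or rbcl, the chloroplast gene for the large subunit of Rubisco, the enzyme that fixes carbon dioxide. It read 1.38 and 1.13 in watered WL711 and 0.16 and 0.38 in droughted WL711. In C306 it read -0.16 and -0.55 with water and -1.04 and -0.93 under drought, a difference of -0.63 (limma adjusted p = 0.362) that lies outside the limits of the rule. Next came the gibberellin 20-oxidase genes, which make a growth hormone precursor, with gaps of 0.54 for Ta20ox1D and 0.52 for Ta20ox1B. In the photosynthesis list, mostly probe sets of rbcl, 15 of 31 had both WL711 drought arrays below both control arrays, with a median difference of -0.20 and 0 past the threshold (limma). For dehydrins and related proteins, which protect drying cells, it was 4 of 10 with a median of -0.14, and for tubulins and histones it was 5 of 28. It was 3 of 5 for hormone genes, 2 of 7 for cell wall genes, 1 of 5 for sugar and fructan enzymes and 1 of 4 for metal chelators. For the other 6 lists (defence, detoxification, transport, heat shock, ribosome and flowering) it was 0. Over all named probe sets it was 52 of 200, or 26.0%, against 22.4% of all probe sets.

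Of all annotated probe sets with a WL711 gap of at least 1 there was 1 more, Ta.21350.2.S1_at of LOC543150. It read 3.23 and 2.14 in watered WL711 and -1.55 and -1.62 in droughted WL711, a gap of 3.69. Its C306 difference of 2.43 kept it out of the set.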

How the data were processed

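Leaf RNA of WL711 and C306 was hybridised to 8 one-colour Affymetrix arrays. The authors deposited log2 values, 1 per probe set and array. RMA made them, per the submitters' processing notes, which state no version. Across the table, the median of every probe set was 0 within 5e-07, so the deposited log2 values were centred per probe set. Centring cancels in differences between arrays and removes abundance. Of 61290 probe sets, 111 Affymetrix controls were left out.

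limma 3.58.1 in R 4.3.3 was fitted across all 61179 probe sets with 4 group means (lmFit, contrasts.fit, eBayes without trend, 4 residual and 4.63 prior degrees of freedom). The threshold was an adjusted p (Benjamini-Hochberg) under 0.05. SE is limma's moderated standard error. The rule and fit were tested on simulated data. Gene names came from the platform annotation and the IWGSC CS RefSeq v2.1 gene table, which held 770 of 771 annotated genes.

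The members, gene lists and tests were chosen with earlier results of these data known. Named were the member with a gene, the 12 largest gaps, the 6 highest and 6 lowest cultivar differences past the threshold, and the 2 probe sets on each side of the gap limit, 22 members in all. All further names were picked with values in view. Other settings tried were a replicate block, median shift, quantile normalization once more, trend and robust eBayes, array weights, removal of shared endings, each array left out, and other limits of the rule. Fits with an array left out leave a group without a replicate. Calls of the cultivar difference counted over the alternatives include such fits.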

Additional observations from a re-analysis of the deposited data

Results flagged for a closer look

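In 2 probe sets the drought effect differed between the cultivars by the test of the difference itself. Ta.17978.1.S1_at had a drought effect in C306 minus that in WL711 of 4.91, and Ta.10581.1.A1_at one of 3.84 (log2). Each was among the 36 because its effects differ, so the test is not independent of the choice. Over 14 alternatives the first ran from 4.52 to 5.54. Fits with 1 array left out leave a group with 1 array and enter as differences only. In the alternatives with all 8 arrays, the first lost its call with trend and robust eBayes (limma adjusted p = 0.610). The second ran from 3.33 to 4.34 and, with all 8 arrays, lost its call with trend and robust eBayes too (limma adjusted p = 0.546). Groups of 2 arrays were too small to look for single outlying values.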

How the results depend on the processing

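The number of probe sets that meet the rule depended on both WL711 groups and on the limits. Leaving out 1 WL711 array, which eases the rule, gave 66 to 169 probe sets in place of 36, and leaving out 1 C306 array gave 28 to 38. A gap of at least 0.75 gave 74, a gap of at least 1.5 gave 14, a C306 band of 0.25 gave 21, and every C306 drought array within 0.5 of every C306 control array gave 13. A median shift kept 34 of the 36 and quantile normalization once more kept 33, with 46 in all. The members past the threshold in WL711, 5 in the main setting, numbered 16 with the replicate block, 0 with trend and robust eBayes, 1 with array weights, 11 of 26 without shared endings, and 0 to 7 when single arrays were left out (limma). For the cultivar difference 28 members passed, 18 with trend and robust eBayes, 26 with the replicate block and 22 to 28 with single arrays left out. Over all probe sets 11632 passed, and 5528 to 14680 with single arrays left out. Why these counts moved was not tested beyond the construction of each setting. The sign of the cultivar difference was that of the main setting for every member under all alternatives, except 2 members without C306 drought replicate 1, neither among the 22 named by rule. Over the alternatives for these 22, 260 values kept the side of the threshold, 39 lost it and 3 gained it. Same-numbered replicates deviated from their group means with correlations of -0.093 to 0.11, so the numbers were not taken as pairs. Trend in eBayes was fitted on centred means, which do not measure brightness, and signal over background was not available here to limit the values.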
